A study of Aspergillus nidulans with 6 samples.

Results

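Central carbon and fatty acid metabolism was represented by 42 of the 1375 genes in the deposited table. They were picked by words in their annotation, such as CoA, fatty acid, desaturase, citrate, malate, pyruvate, glyoxyl, glycerol, aldolase, acetate, lactate and peroxisom. A further 8 genes with such a word were left out by the rule. It dropped annotations with words such as transporter, oxygenase, transcription or amino, and also a short run of neighbouring loci by name. The choice used no expression value, but the table itself did, since it lists only genes that the authors had chosen from these same libraries as differing 2-fold or more at a p-value below 0.05. Enzymes of these pathways that did not pass that selection were not analysed here, so that nothing can be said of a pathway as a whole.

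The study compared mycelium of the filamentous fungus Aspergillus nidulans, strain SAA.111 (the control) with celAΔ, in which the argB marker stands in the place of celA, a gene for a putative mixed linkage glucan synthase. SAA.111 carries veA1 and biA1, ΔargB::trpC, riboB2, pyroA4 and wA3, and celAΔ was derived from it, so that the strains also differ in argB, and no library had the marker without the deletion. The cultures, 3 of each strain, were grown for 3 days at 37 °C in liquid minimal medium with 0.4% (w/v) glucose as the carbon source and 10 mM ammonium tartrate as the nitrogen source. The time is that of the labels, and the text of the study also names a later time point for the RNA-Seq. The celAΔ cultures came from a single transformant, and the p-values below measure only the spread between these cultures.

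Hyphae that break down glucose send its carbon to pyruvate, and from there either into the citrate cycle or, over acetaldehyde and lactate, into fermentation products. When glucose is gone, filamentous fungi live on acetate, fatty acids, glycerol or amino acids. Fatty acids are then oxidised to acetyl-CoA in mitochondria and peroxisomes, the glyoxylate cycle turns acetyl-CoA into 4-carbon acids, and phosphoenolpyruvate (PEP) carboxykinase carries these back towards sugars. Glycerol, besides being a carbon source and the backbone of lipids, is a protective solute of fungal cells.

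The mapped totals per library were 3300251 to 3706233 reads in the control and 4176645 to 5205011 reads in celAΔ. celA had 26.6, 29.7 and 15.3 RPKM in the control libraries and 3.54, 3.64 and 4.29 RPKM (33, 38 and 36 reads) in celAΔ. The targeted gene was thus lower but not absent in the libraries of a strain in which it was replaced, and the labels speak of its downregulation. The study names residual heterokaryons as a possible source of these reads, which was not tested here. The marker argB had at most 1.02 RPKM in the control and at least 1471 RPKM in celAΔ. RPKM is the read count of a gene scaled by its length and by the library's mapped total. Control 3 stood apart from controls 1 and 2, and celAΔ 1 to a lesser degree from celAΔ 2 and 3. In a comparison of reads over the listed genes, the chi-square statistic per degree of freedom was 156 and 150.0 between control 3 and controls 1 and 2, and 4.02 between these. It was 65.8 and 58.9 between celAΔ 1 and celAΔ 2 and 3, and 5.87 between these. The 3 listed genes annotated with conidia or conidiation summed to 40.6, 40.7 and 1160 RPKM in controls 1, 2 and 3 and to 1498, 2182 and 3024 RPKM in celAΔ, and the part of these differences in the results below was not tested. Most of the sum in control 3 and celAΔ came from ANIA_05015 (943 RPKM in control 3 and 1128 to 2529 RPKM in celAΔ), while flbD had 33.1, 30.1 and 159 RPKM and ANIA_05086 5.33, 9.30 and 57.8 RPKM in the controls, against 183 to 234 and 136 to 283 RPKM in celAΔ. In such bulk samples, fewer cells of a kind and less RNA per cell cannot be told apart.

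By mean RPKM, 17 of the 42 genes were higher and 25 were lower in celAΔ. A gene passed when edgeR's quasi-likelihood test on unique reads gave it a log2 FC beyond 1 in either direction with a p-value under 0.05 after Benjamini-Hochberg adjustment. This held for 37 genes, 12 of the 17 higher (41.1% of the listed genes passed as higher) and 25 of the 25 lower (52.5% passed as lower). In all, 93.6% of the listed genes passed, 88.0% of those higher in celAΔ and 98.5% of those lower, so these counts do not set the group apart. The control and celAΔ libraries did not overlap for any of the 42 genes, nor for 99.3% of the listed genes. The median log2 FC was 2.12 for the higher genes and -1.73 for the lower genes, beside 1.89 and -1.71 over the whole table. With genes that had no more than 3 reads in each library of a strain set at their lower bound, the medians were 2.03 and -1.73, beside 1.73 and -1.65. When the p-values were adjusted over all 10516 loci of the reference gene table, 15 of the 42 passed, where 38.1% of the table did. Those were glycerol kinase alone among the higher genes and 14 of the lower genes. The calls of 12 lower genes ended when libraries were scaled to the median listed gene or with DESeq2, namely ANIA_00649, ANIA_00824, ANIA_01037, ANIA_04255, ANIA_04690, ANIA_04923, ANIA_05007, ANIA_06717, ANIA_07631, ANIA_10011, ANIA_10612 and ANIA_10764, while none of the 42 genes turned in direction.

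**Figure D1:**
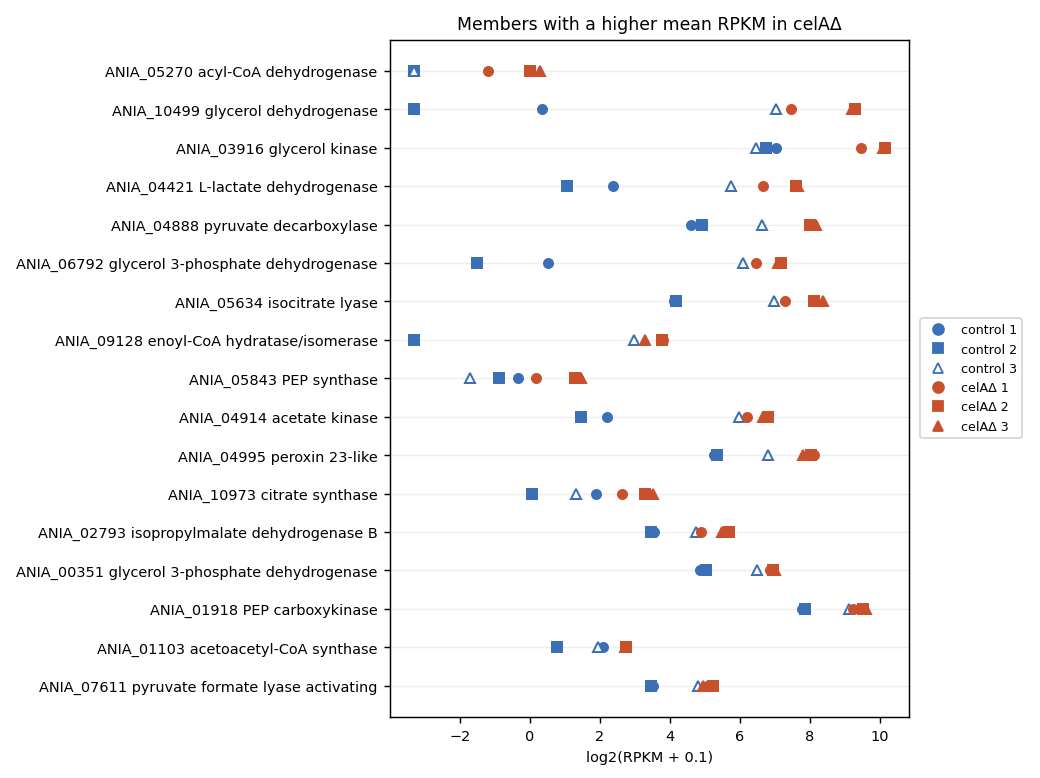
Level of the 17 genes with a higher mean RPKM in celAΔ, as log2(RPKM + 0.1) on the horizontal axis, with 1 point per library. Controls are blue and celAΔ libraries red, and the open triangle is control 3, which lies near the celAΔ points for glycerol dehydrogenase and acetate kinase but not for glycerol kinase.

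The genes of glycerol metabolism were 4, and the 4 of them had higher levels in celAΔ. Glycerol kinase (ANIA_03916), which phosphorylates glycerol so that it can enter glycolysis or lipid synthesis, had 131, 108 and 87.7 RPKM in controls 1, 2 and 3 and 703, 1137 and 1080.5 RPKM in celAΔ libraries 1, 2 and 3. The controls were close together and the lowest celAΔ library was far above them, so the groups did not overlap. Its mean rose 8.95-fold (log2 FC 3.16 ± 0.40 SE, the standard error, adjusted p = 0.00139 by edgeR with Benjamini-Hochberg), and among the listed genes its mean level moved from rank 232 in the control to rank 47 in celAΔ. With any single library left out, its log2 FC stayed between 3.03 and 3.35.

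For the other glycerol genes control 3 was close to celAΔ. NADP-coupled glycerol dehydrogenase (ANIA_10499), which interconverts glycerol and dihydroxyacetone, had 1.16, 0 and 130 RPKM in the controls and 175, 628 and 586 RPKM in celAΔ. Its log2 FC of 3.41 had a standard error (SE) of 1.87 and did not pass (adjusted p = 0.111, edgeR and Benjamini-Hochberg). Control 3 lay close to celAΔ 1, while controls 1 and 2 were near 0. A glycerol 3-phosphate dehydrogenase (ANIA_06792), which links glycerol 3-phosphate with dihydroxyacetone phosphate of glycolysis, had 1.32, 0.248 and 67.7 RPKM in the controls and 88.1, 143 and 137 RPKM in celAΔ. It did not pass either (log2 FC 2.41 ± 1.5 SE, adjusted p = 0.151 by edgeR with Benjamini-Hochberg). Its counterpart ANIA_00351, annotated as similar to the same enzyme, had 28.9, 32.6 and 89.2 RPKM in the controls against 115, 123 and 128 RPKM in celAΔ, and rose by a log2 FC of 1.28 ± 0.48 (SE, with an adjusted p = 0.0346 by edgeR with Benjamini-Hochberg).

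The 2 annotated glycerol 3-phosphate dehydrogenases differed in how they shared their summed RPKM. ANIA_00351 held 95.6% and 99.2% of it in controls 1 and 2, 56.8% in control 3 and 46.2 to 56.7% in celAΔ. Control 3 therefore lay with celAΔ in this share, and the sum of the pair went from 30.2 and 32.9 RPKM in controls 1 and 2 to 157 RPKM in control 3 and 203 to 266 RPKM in celAΔ. Without control 3, ANIA_10499 and ANIA_06792 passed with log2 FC of 9.49 and 7.20, and glycerol kinase with 3.03. With limma, which averages log2 values, they also passed with all libraries in, ANIA_10499 with log2 FC of 5.94 to 7.30 and ANIA_06792 with 4.37 to 5.22. Conversely, ANIA_00351 did not pass when any library other than control 3 was left out (adjusted p from 0.0697 to 0.105, edgeR and Benjamini-Hochberg).

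Around pyruvate, 4 of 5 genes were higher and 1 was lower in celAΔ. The table lists a pair of pyruvate decarboxylases, enzymes that turn pyruvate into acetaldehyde and carbon dioxide, and they moved in opposite directions. ANIA_04888 had 24.0, 29.8 and 98.4 RPKM in the controls and 269, 256 and 287 RPKM in celAΔ. All celAΔ libraries were more than 2-fold above control 3, the highest control, and the gene rose 5.33-fold (log2 FC 2.41 ± 0.59 SE, adjusted p = 0.0085 by edgeR with Benjamini-Hochberg). The annotated pyruvate decarboxylase ANIA_08396 had 240, 233 and 97.5 RPKM in the controls and 38.0, 54.4 and 52.1 RPKM in celAΔ. It fell 3.95-fold (log2 FC -1.98 ± 0.44 SE, adjusted p = 0.00629 by edgeR with Benjamini-Hochberg).

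In this pair, ANIA_04888 made up 9.11% and 11.3% of the summed RPKM in controls 1 and 2, 50.2% in control 3 and 82.5 to 87.6% in celAΔ. The predominant transcript was thus ANIA_08396 in controls 1 and 2 and ANIA_04888 in celAΔ, with control 3 in the middle. Their sum moved less, from 264 and 263 RPKM in controls 1 and 2 and 196 RPKM in control 3 to 307, 310 and 339 RPKM in celAΔ.

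**Figure D2:**
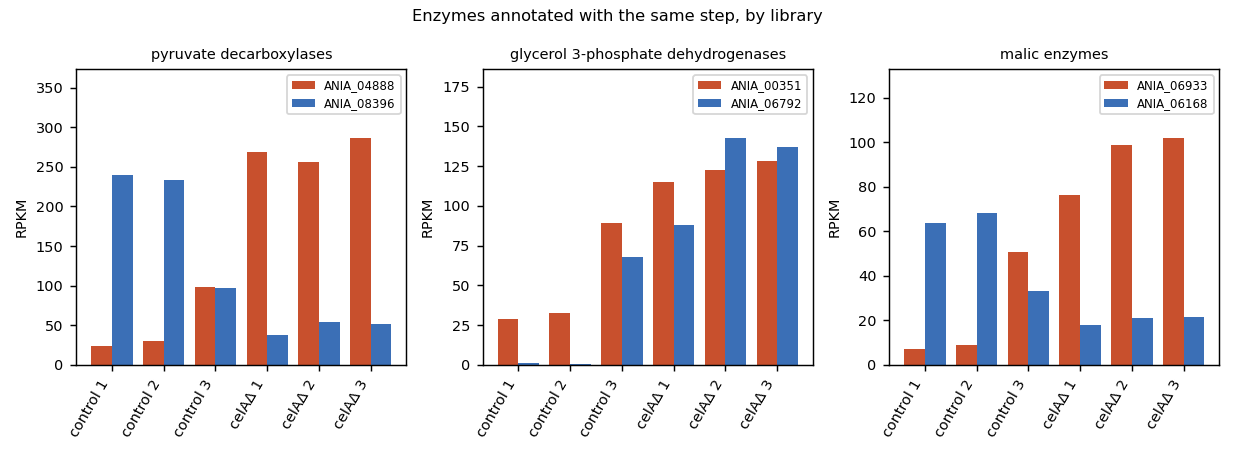
RPKM in each library (vertical axis, from 0) of pairs of genes annotated with the same step, pyruvate decarboxylases, glycerol 3-phosphate dehydrogenases and malic enzymes. Among the pyruvate decarboxylases the blue bars (ANIA_08396) are the taller in controls 1 and 2 and the red bars (ANIA_04888) in celAΔ, while control 3 has 98.4 and 97.5 RPKM.

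L-lactate dehydrogenase (ANIA_04421), which interconverts pyruvate and lactate, had 5.09, 1.98 and 54.0 RPKM in the controls and 101, 193 and 203 RPKM in celAΔ. Control 3 was more than 10 times as high as control 1 and still below each celAΔ library. The gene rose 8.14-fold (log2 FC 3.02 ± 1.13 SE, adjusted p = 0.0337 by edgeR with Benjamini-Hochberg). It no longer passed when any library other than control 3 was left out (adjusted p from 0.0516 to 0.0712, edgeR and Benjamini-Hochberg), and without control 3 its log2 FC was 5.52.

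A putative acetate kinase (ANIA_04914), an enzyme that interconverts acetate and acetyl phosphate, had 4.49, 2.64 and 62.8 RPKM in the controls and 73.4, 112 and 102 RPKM in celAΔ. Control 3 nearly reached celAΔ 1, and the gene did not pass (log2 FC 2.03 ± 1.08 SE, adjusted p = 0.101 by edgeR with Benjamini-Hochberg). Without control 3 it passed with a log2 FC of 4.72, and with limma on all libraries with 3.13 to 3.35. A gene annotated as a pyruvate formate lyase activating enzyme (ANIA_07611), which in Escherichia coli switches on the enzyme that cleaves pyruvate to formate and acetyl-CoA, had 11.3, 10.8 and 27.7 RPKM in the controls and 33.4, 37.3 and 30.7 RPKM in celAΔ. It passed narrowly (log2 FC 1.03 ± 0.42 SE, adjusted p = 0.0455 by edgeR with Benjamini-Hochberg), and failed with any library other than control 3 left out (adjusted p from 0.083 to 0.136, edgeR and Benjamini-Hochberg) and with TMM factors (adjusted p = 0.0558, edgeR and Benjamini-Hochberg).

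Isocitrate lyase (ANIA_05634), the enzyme that opens the glyoxylate cycle by splitting isocitrate into glyoxylate and succinate, had 17.4, 17.8 and 126 RPKM in the controls and 155, 278 and 333 RPKM in celAΔ. Controls 1 and 2 agreed closely, and control 3 lay near celAΔ 1. The gene rose 4.76-fold (log2 FC 2.25 ± 0.84 SE, adjusted p = 0.034 by edgeR with Benjamini-Hochberg). Its log2 FC was 3.86 without control 3, and with any other library left out it did not pass (adjusted p from 0.0528 to 0.0835, edgeR and Benjamini-Hochberg).

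PEP carboxykinase (ANIA_01918, acuF), which turns oxaloacetate into PEP at the entrance to gluconeogenesis, was the most abundant of the 42 genes in celAΔ after glycerol kinase. It had 217, 230.1 and 555 RPKM in the controls and 605, 738 and 781 RPKM in celAΔ. Control 3 was closer to celAΔ 1 than to the other controls, and the 2.12-fold difference of the means did not pass (log2 FC 1.08 ± 0.46 SE, adjusted p = 0.0532 by edgeR with Benjamini-Hochberg). It did pass without control 3, with a log2 FC of 1.66, with DESeq2 and with scaling to the median listed gene (1.71 in both), and with limma (1.22). A putative PEP synthase (ANIA_05843), known from bacteria for making PEP from pyruvate, was weakly expressed, with 0.690, 0.443 and 0.203 RPKM in the controls and 1.02, 2.32 and 2.63 RPKM in celAΔ. These values rest on 2 to 33 reads per library, and control 3 was the lowest of the controls. The gene rose 4.47-fold (log2 FC 2.12 ± 0.55 SE, adjusted p = 0.00995 by edgeR with Benjamini-Hochberg).

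Genes placed in glycolysis by similarity alone, without a test of their activity, fell. These were the hexokinase-like gene ANIA_04255 and ANIA_02334, similar to fructose/tagatose bisphosphate aldolases. The former, named for the enzymes that phosphorylate glucose on entry, had 465, 449 and 327 RPKM in the controls and 299, 164 and 152 RPKM in celAΔ. Here celAΔ 1 lay close to control 3 and apart from the other celAΔ libraries, and the log2 FC of -1.01 ± 0.40 (SE, with an adjusted p = 0.0394 by edgeR with Benjamini-Hochberg) did not pass without control 1, control 2, celAΔ 2 or celAΔ 3 (adjusted p from 0.0994 to 0.138, edgeR and Benjamini-Hochberg). ANIA_02334 had 33.5, 42.9 and 12.9 RPKM in the controls and 4.76, 6.47 and 2.78 RPKM in celAΔ, a 6.38-fold fall that passed in each of the 15 alternative settings.

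Genes of the citrate cycle and of the acids next to it went both ways. Malate dehydrogenase (ANIA_06717), which oxidises malate to oxaloacetate, had 250.0, 346 and 244 RPKM in the controls and 132, 120 and 147 RPKM in celAΔ. It fell 2.11-fold (log2 FC -1.08 ± 0.31 SE, adjusted p = 0.0147 by edgeR with Benjamini-Hochberg), but did not pass without control 2 or celAΔ 2 (adjusted p of 0.0556 and 0.0609, edgeR and Benjamini-Hochberg). Succinate semialdehyde dehydrogenase (ANIA_10011), the last enzyme of the GABA shunt into the citrate cycle, fell from 26.0, 30.6 and 19.1 RPKM in the controls to 6.64, 8.36 and 9.94 RPKM in celAΔ (log2 FC -1.60 ± 0.32, SE). A putative citrate synthase (ANIA_10973) was low, with 3.59, 0.948 and 2.39 RPKM in the controls and 6.07, 9.62 and 11.2 RPKM in celAΔ. It rose 3.89-fold (log2 FC 1.93 ± 0.48 SE, adjusted p = 0.00908 by edgeR with Benjamini-Hochberg), and control 3 lay between the other controls.

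**Figure D3:**
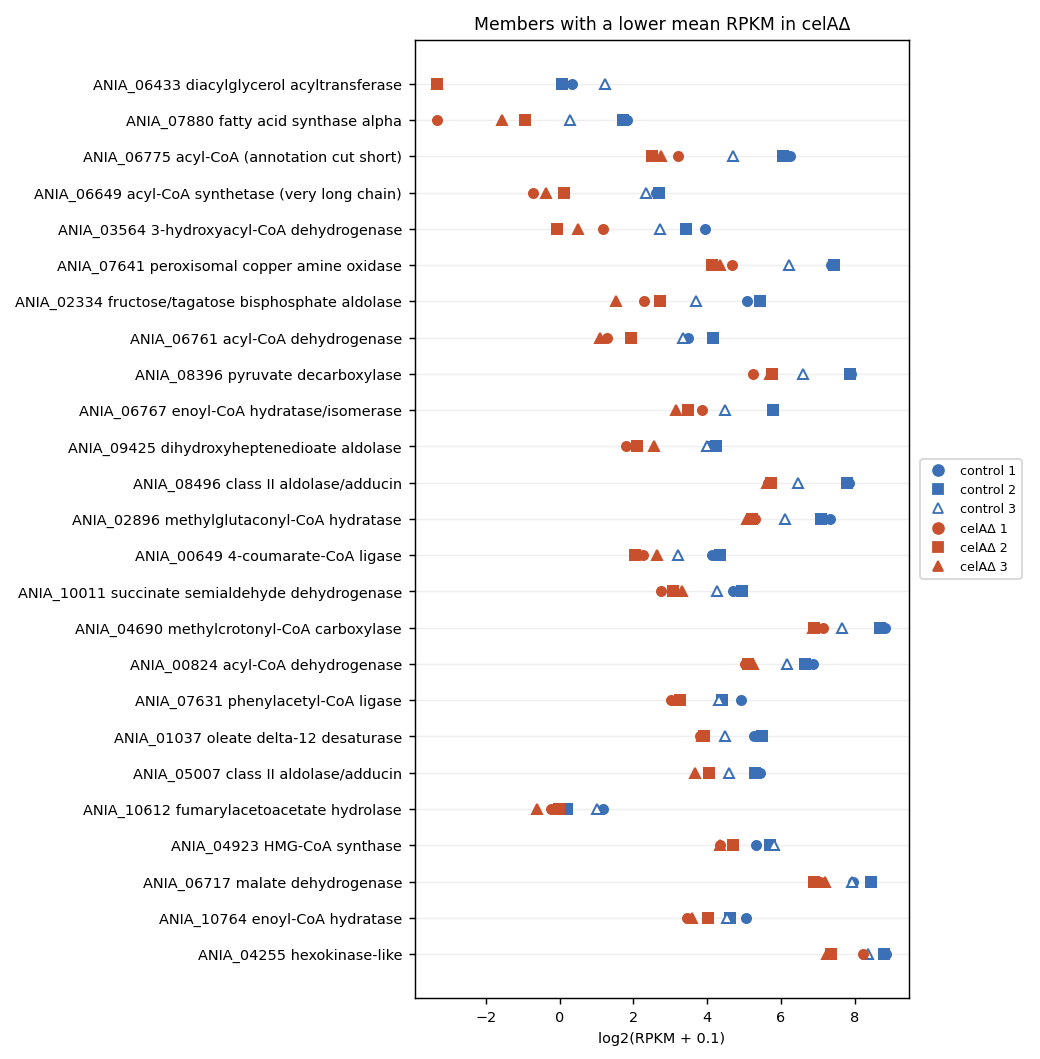
Level of the 25 genes with a lower mean RPKM in celAΔ, as log2(RPKM + 0.1) on the horizontal axis, with 1 point per library. Controls are blue, celAΔ libraries red and control 3 an open triangle, which for 22 of the 25 genes is the control lowest in reads per mapped read.

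Genes grouped here under the activation and oxidation of acyl-CoA were 9, and 7 of them fell in celAΔ. The steps are the coupling of a fatty acid to CoA, dehydrogenation, hydration and another dehydrogenation. For 1 of the 9, ANIA_06775, the annotation is only acyl-CoA, which names no step. The gene with the acyl-CoA annotation cut short in the table (ANIA_06775) had 76.2, 66.6 and 25.9 RPKM in the controls and 9.14, 5.55 and 6.69 RPKM in celAΔ, a 7.89-fold fall (log2 FC -2.98 ± 0.48 SE, adjusted p = 0.00245 by edgeR with Benjamini-Hochberg). A gene annotated as a putative very-long-chain acyl-CoA synthetase family protein, CefD1 (ANIA_06649), was placed here by that annotation, and its substrate was not tested. It fell 8.02-fold, from 6.07, 6.39 and 4.94 RPKM to 0.505, 0.991 and 0.673 RPKM (5, 11 and 6 reads). Its controls lay closer together than those of ANIA_06775.

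At the dehydrogenation step, the putative acyl-CoA dehydrogenase ANIA_00824 was the most abundant, with 117, 101 and 71.4 RPKM in the controls and 32.8, 34.6 and 37.5 RPKM in celAΔ. It fell 2.75-fold (log2 FC -1.46 ± 0.31 SE, adjusted p = 0.00549 by edgeR with Benjamini-Hochberg). ANIA_06761, another putative acyl-CoA dehydrogenase, fell 4.79-fold from 11.1, 17.7 and 10.1 RPKM to 2.35, 3.74 and 2.05 RPKM. The third, ANIA_05270, had 0 reads in each control library and 2, 6 and 6 reads in celAΔ. It passed on these few reads (adjusted p = 0.0106 by edgeR with Benjamini-Hochberg), with a fitted log2 FC of 5.08 that rests on controls without reads. Against the limit of 3 reads per control library, it was at least 1.18-fold higher in celAΔ, a limit that covers counting error only. This bound is below the log2 FC of 1 that a gene needed to pass.

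At the hydration step, the enoyl-CoA hydratase/isomerase family gene ANIA_06767 had 55.4, 55.2 and 22.3 RPKM in the controls and 14.4, 10.98 and 8.80 RPKM in celAΔ, and fell 3.89-fold (log2 FC -1.95 ± 0.43 SE, adjusted p = 0.00627 by edgeR with Benjamini-Hochberg). The enoyl-CoA hydratase ANIA_10764 fell 2.07-fold, and did not pass without control 1, celAΔ 1 or celAΔ 3, with log2 FC of -0.86, -0.93 and -0.99. A second gene of the hydratase/isomerase family, ANIA_09128, went the other way, with 0, 0 and 23 reads in the controls and 52, 57 and 33 reads in celAΔ. It did not pass (log2 FC 2.21 ± 1.05 SE, adjusted p = 0.0728 by edgeR with Benjamini-Hochberg), but did with limma (log2 FC 2.67 to 4.83). Without control 3 it was at least 11.7-fold higher in celAΔ, against 3 reads per control library. The next enzyme, a putative 3-hydroxyacyl-CoA dehydrogenase (ANIA_03564), fell 7.50-fold, from 15.2, 10.7 and 6.45 RPKM to 2.15, 0.851 and 1.33 RPKM. Its celAΔ values rest on 9, 4 and 5 reads.

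The median log2 FC of the 9 acyl-CoA genes was -1.95, and 5 of them passed in each of the 15 alternative settings, as did 32.9% of the whole table. Those 5 were ANIA_06775, ANIA_06649, ANIA_03564, ANIA_06761 and ANIA_06767.

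Leucine is broken down to acetyl-CoA and acetoacetate over several CoA esters, and 2 enzymes of this route were among the genes. The biotin-containing subunit of a 3-methylcrotonyl-CoA carboxylase (ANIA_04690) was abundant, with 452, 413 and 203 RPKM in the controls and 140, 119 and 117 RPKM in celAΔ. It fell 2.84-fold (log2 FC -1.51 ± 0.40 SE, adjusted p = 0.0111 by edgeR with Benjamini-Hochberg). The methylglutaconyl-CoA hydratase ANIA_02896, which acts on the product of that carboxylase, fell 3.32-fold from 163, 136 and 69.2 RPKM to 39.5, 37.5 and 33.9 RPKM. For both transcripts control 3 lay between the other controls and celAΔ.

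Among the 42 genes, 3 were annotated for fatty acid synthesis, desaturation and storage, and these 3 fell. Genes of these pathways without the words used here were not counted. An oleate delta-12 desaturase homologue (ANIA_01037), of the enzymes that make linoleic from oleic acid, had 38.9, 44.7 and 22.3 RPKM in the controls and 13.9, 15.1 and 14.5 RPKM in celAΔ (log2 FC -1.28 ± 0.33 SE, adjusted p = 0.0102 by edgeR with Benjamini-Hochberg). The celAΔ libraries were nearly alike, and each lay under control 3. A putative fatty acid synthase alpha subunit (ANIA_07880) had 64, 52 and 20 reads in the controls and 0, 11 and 5 reads in celAΔ, over a gene of 4980 bases, or at most 3.47 RPKM. It fell by a log2 FC of -3.48 ± 0.81 (SE, with an adjusted p = 0.00722 by edgeR with Benjamini-Hochberg). A diacylglycerol acyltransferase family gene (ANIA_06433), named for the enzymes that complete triacylglycerol, had 11, 8 and 21 reads in the controls and 0 in each celAΔ library, which makes it at least 5.78-fold lower against 3 reads per library.

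The listed genes of acetoacetyl and HMG-CoA were 2, and they moved in opposite directions. HMG-CoA synthase (ANIA_04923, erg13), on the way to sterols, had 39.9, 52.0 and 56.0 RPKM in the controls and 20.3, 25.9 and 20.5 RPKM in celAΔ. It fell 2.22-fold (log2 FC -1.15 ± 0.29 SE, adjusted p = 0.00915 by edgeR with Benjamini-Hochberg), and control 3 was the highest control. Acetoacetyl-CoA synthase (ANIA_01103) had 4.17, 1.61 and 3.74 RPKM in the controls and 6.55, 6.58 and 6.47 RPKM in celAΔ, a 2.06-fold rise that did not pass without control 2 or any celAΔ library (adjusted p from 0.0667 to 0.0881, edgeR and Benjamini-Hochberg).

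Among the 42 genes, 2 had a peroxisomal annotation, and both passed, as did 93.6% of the listed genes. A peroxin 23-like gene (ANIA_04995), of a family needed to build peroxisomes, had 38.2, 40.8 and 112 RPKM in the controls and 276, 261 and 223 RPKM in celAΔ, and rose 3.98-fold (log2 FC 1.99 ± 0.50 SE, adjusted p = 0.00903 by edgeR with Benjamini-Hochberg). A peroxisomal copper amine oxidase (ANIA_07641), which oxidises primary amines to aldehydes, had 163, 174 and 75.0 RPKM in the controls and 25.4, 17.5 and 20.3 RPKM in celAΔ. It fell 6.52-fold (log2 FC -2.70 ± 0.43 SE, adjusted p = 0.00235 by edgeR with Benjamini-Hochberg). The strains did not overlap for these genes, nor for 99.3% of the listed genes. For both genes control 3 lay nearer to celAΔ than controls 1 and 2 did.

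The remaining 7 genes were aldolase-type enzymes and enzymes of aromatic acids and leucine synthesis. The 3 aldolase-type genes fell, with a median log2 FC of -1.83. ANIA_08496, a class II aldolase/adducin domain gene, had 231, 224 and 88.4 RPKM in the controls and 50.4, 52.6 and 49.7 RPKM in celAΔ, a 3.56-fold fall. Its relative ANIA_05007 fell 2.36-fold, and ANIA_09425, named for an aldolase with which Escherichia coli breaks down homoprotocatechuate, fell 3.80-fold from 16.4, 18.8 and 15.9 RPKM to 3.41, 4.21 and 5.83 RPKM. The CoA ligases for phenylacetate (ANIA_07631) and 4-coumarate (ANIA_00649) fell 2.68-fold and 3.16-fold. Isopropylmalate dehydrogenase B (ANIA_02793), an enzyme of leucine synthesis, rose from 11.6, 10.9 and 26.7 RPKM to 29.2, 51.1 and 45.0 RPKM (log2 FC 1.35 ± 0.44 SE, adjusted p = 0.0211 by edgeR with Benjamini-Hochberg), and did not pass without control 1, control 2, celAΔ 2 or celAΔ 3 (adjusted p from 0.0603 to 0.0703, edgeR and Benjamini-Hochberg). The fumarylacetoacetate hydrolase family gene ANIA_10612 had 2 to 7 reads in every library, with a fitted log2 FC of -1.19 that did not pass when control 1, control 3 or any celAΔ library was left out (adjusted p from 0.0593 to 0.141, edgeR and Benjamini-Hochberg).

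**Figure D4:**
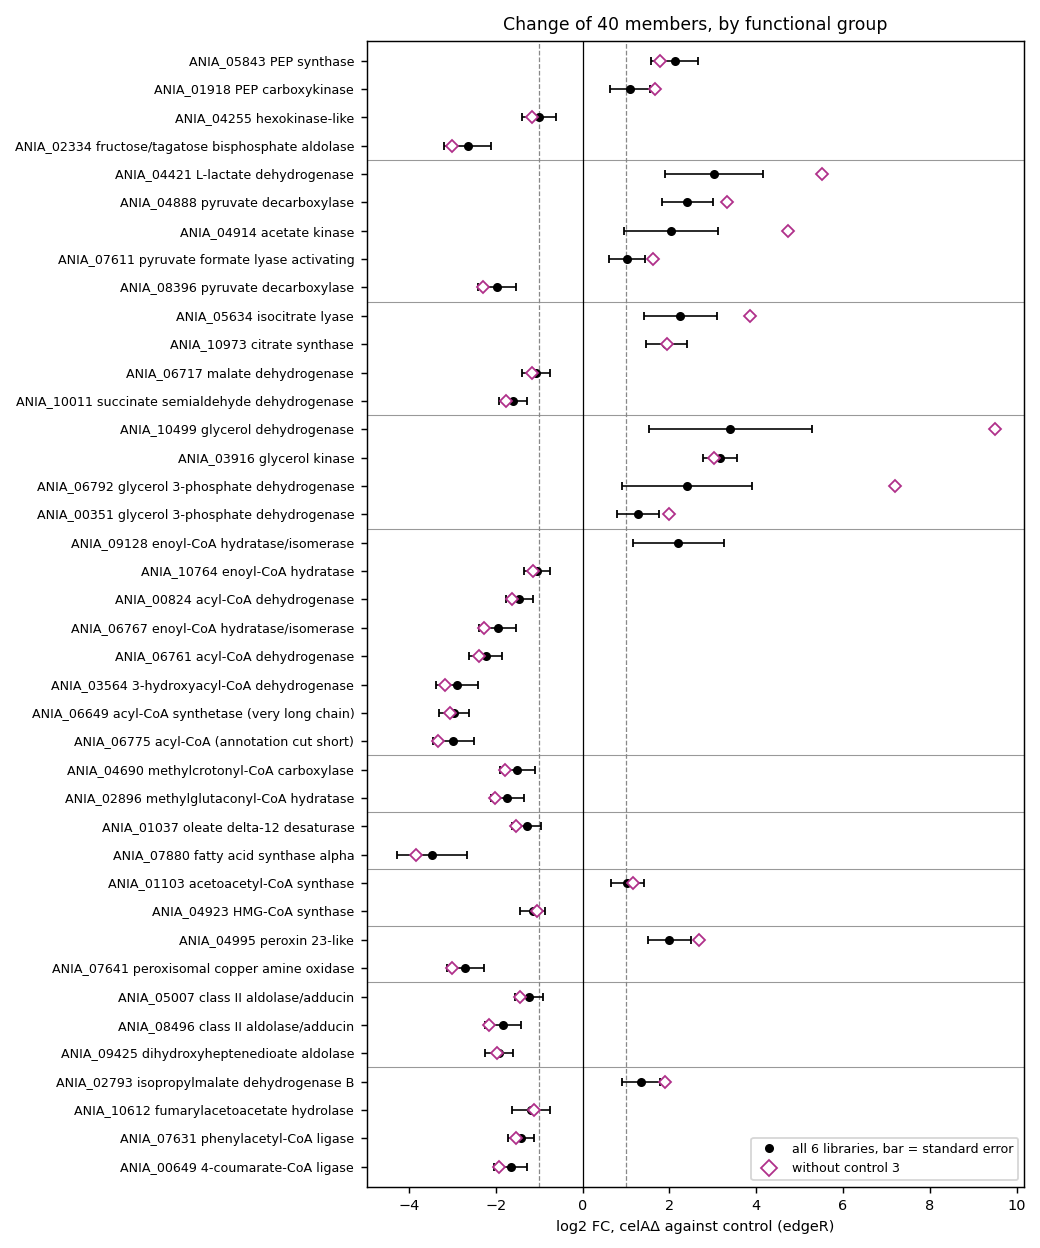
log2 FC of celAΔ against the control (horizontal axis) for 40 of the 42 genes, in blocks by function, with the standard error as bars (black, all 6 libraries) and the value without control 3 as open diamonds. Dashed lines mark a log2 FC of -1 and 1. The diamonds move furthest from the black points for glycerol dehydrogenase (3.41 to 9.49) and a glycerol 3-phosphate dehydrogenase (2.41 to 7.20), and 3 values that are only lower bounds are left out.

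Control 3 lay beyond controls 1 and 2 on the side of celAΔ for 34 of the 42 genes (12 of 17 that were higher, 22 of 25 that were lower), beside 74.5% of the whole table. As a description, its place was set at 0% at the mean of controls 1 and 2 and at 100% at the mean of celAΔ on the scale of log2(RPM + 0.5), RPM being reads scaled by the mapped total alone. The median place was 71.8% for the higher genes and 38.9% for the lower genes, beside 47.4% and 30.0% in the whole table. For glycerol kinase, PEP synthase, HMG-CoA synthase, diacylglycerol acyltransferase and fumarylacetoacetate hydrolase it was below 0%. There control 3 lay beyond the mean of controls 1 and 2, on the side away from celAΔ. For fumarylacetoacetate hydrolase it still lay between controls 1 and 2, with 2.18, 1.05 and 1.92 RPKM in controls 1, 2 and 3. Without control 3, 41 of the 42 genes passed, beside 96.1% of the table, and the 17 higher genes were among them. Of the listed genes higher in celAΔ 97.2% passed then (45.4% of the whole table), so that this too is near the background. The summed RPKM of the conidiation genes likewise set control 3 (1160) nearer to celAΔ (1498 to 3024) than to controls 1 and 2 (40.6 and 40.7), and its part in these values was not tested.

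**Figure D5:**
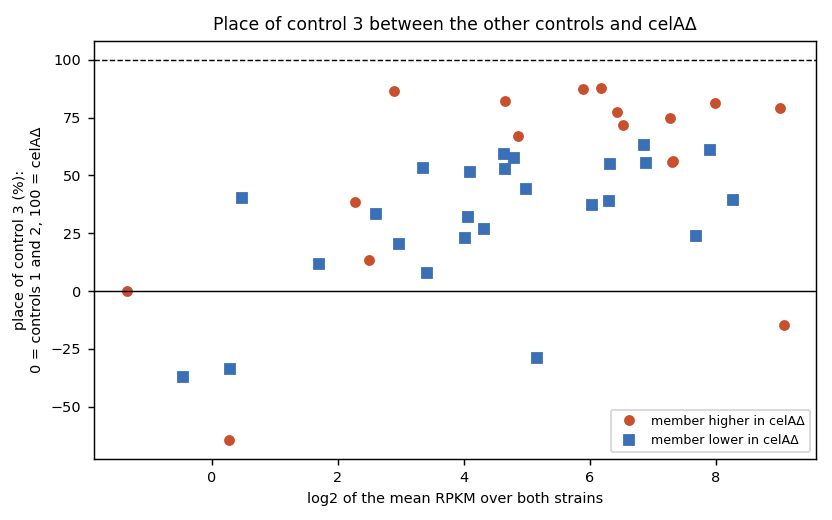
Place of control 3 (vertical axis, in %) against the log2 of the mean RPKM over both strains (horizontal axis), 1 point per gene, with 0 at controls 1 and 2 and 100 at celAΔ. Of the 17 genes higher in celAΔ (circles), 12 lie over 50%, and of the 25 lower genes (squares), 9 do, while glycerol kinase lies at -14.5% and PEP synthase at -64.2%.

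Other enzymes of the same pathways were read from a list of 20 genes whose annotation lacks the words used here or names a transporter or transcription factor. Of these, 9 were higher and 11 lower in celAΔ, and 7 of the 9 and 11 of the 11 passed, near the 88.0% and 98.5% that passed among all listed genes of either direction. The calls of 7 lower genes ended with scaling to the median listed gene or with DESeq2, at log2 FC of -0.58 for ANIA_01425, -0.57 for ANIA_10122, -0.71 for ANIA_05192, -0.73 for ANIA_06168, -0.77 for ANIA_05300, -0.91 for ANIA_10078 and -0.94 for ANIA_04934 under that scaling. Isovaleryl-CoA dehydrogenase (ANIA_04688), the step of leucine breakdown before the 3-methylcrotonyl-CoA carboxylase, fell from 155, 118 and 62.9 RPKM in the controls to 29.8, 32.6 and 25.1 RPKM in celAΔ (log2 FC -1.94 ± 0.40 SE, adjusted p = 0.00507 by edgeR with Benjamini-Hochberg). Methylmalonate-semialdehyde dehydrogenase (ANIA_03591), an enzyme of valine breakdown, fell 4.56-fold, and the E2 component of a 2-oxo acid dehydrogenase complex (ANIA_03639) 3.77-fold. A peroxisomal fatty acid ABC transporter (ANIA_10078) and a long-chain fatty acid transporter (ANIA_05192) fell 3.09-fold and 2.68-fold. The regulator farB (ANIA_01425), annotated for the catabolism of short-chain fatty acids, had 66.7, 61.6 and 61.1 RPKM in the controls and 21.2, 28.6 and 29.1 RPKM in celAΔ (log2 FC -1.26 ± 0.29 SE, adjusted p = 0.00704 by edgeR with Benjamini-Hochberg). Its controls were nearly alike, control 3 included.

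In contrast, the cytosolic carnitine acetyl transferase FacC (ANIA_01059), which carries acetyl groups between compartments, rose from 56.5, 51.3 and 80.0 RPKM to 156, 141 and 135 RPKM (log2 FC 1.20 ± 0.32 SE, adjusted p = 0.0116 by edgeR with Benjamini-Hochberg). With any single library left out its log2 FC stayed between 1.08 and 1.42, and its highest adjusted p was 0.0524 (edgeR, Benjamini-Hochberg). The malic enzymes, which turn malate into pyruvate, again formed a pair that crossed. The gene similar to the mitochondrial NAD-dependent enzyme of yeast (ANIA_06933) made up 10.1% and 11.5% of their summed RPKM in controls 1 and 2, 60.3% in control 3 and 81.0 to 82.6% in celAΔ, and the NADP-dependent ANIA_06168 the rest. The former rose by a log2 FC of 2.06, with an adjusted p of up to 0.083 when 1 library was left out, and the latter fell by a log2 FC of -1.44 (edgeR, Benjamini-Hochberg). These pairs of genes annotated for the same step, the malic enzymes with different cofactors, were picked out after their values were seen. Their shares are given as a description. The 2 listed reductases of acyl carrier protein substrates, ANIA_04934 and ANIA_10122, enzymes of fatty acid synthesis, fell 3.10-fold and 2.43-fold. Both aconitate hydratases (ANIA_03894 and ANIA_05300) fell, by log2 FC of -1.75 and -1.47.

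The 3 genes annotated for fructose 2,6-bisphosphate, the signal metabolite that sets the direction between glycolysis and gluconeogenesis, rose. They were ANIA_10824 and ANIA_05144, annotated as 6-phosphofructo-2-kinases, and ANIA_10844, similar to the phosphatase, so that the annotated activities oppose each other. In this order the log2 FC were 1.06, 1.24 and 1.35. With 1 library left out their adjusted p reached 0.132, 0.0721 and 0.0745 (edgeR, Benjamini-Hochberg). For ANIA_10844 the levels were 113, 104 and 241 RPKM in the controls and 481, 364 and 321 RPKM in celAΔ. Of the 4 trehalose synthesis genes, ANIA_10533, a large subunit of trehalose 6-phosphate synthase, was the most abundant, with 136, 127 and 743 RPKM in the controls and 1863, 1244 and 1265 RPKM in celAΔ (log2 FC 2.12 ± 0.76 SE, adjusted p = 0.0298 by edgeR with Benjamini-Hochberg). Its adjusted p reached 0.0851 with 1 library left out (edgeR, Benjamini-Hochberg). The heat shock trehalose synthase ANIA_10506 had 0 reads in each control and 9, 33 and 28 reads in celAΔ, at least 5.88-fold higher against 3 reads per library. The remaining trehalose genes, ANIA_05523 and ANIA_05021, failed at log2 FC of 1.51 and 1.69 (adjusted p of 0.0574 and 0.0727, edgeR and Benjamini-Hochberg), with control 3 at 84.3% and 86.4% of the way to celAΔ.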

How the data were processed

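After trimming and filtering, the authors mapped the reads in CLC Genomics Workbench 9.0.1 to the A. nidulans FGSC A4 transcriptome, with at most 3 hits per read. They deposited, for each gene and library, unique gene reads (counts, without normalization) and RPKM, and also mean RPKM per strain, gene length (another value, in bases) and a p-value from their own comparison, not adjusted and not used here. RPKM divides the reads of a gene by its length and the mapped reads. The table holds only genes selected on these libraries, so that p-values computed on it are no independent evidence, and set tests were left out.

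Mapped totals were derived from reads, length and RPKM, and returned the reads of at least 98.5% of genes within 1 read. A supplementary sheet of the study gives the totals of control 2 and celAΔ 2 the other way round, and those that return the deposited reads were used. Unique reads of the 3 libraries per strain were compared in edgeR 4.0.16 (R 4.3.3) taking these totals for library sizes, without normalization factors and at a prior count of 0.125. Dividing the absolute log2 FC by the root of the F statistic gave standard errors. Tests were two-sided, and an exact test of 3 against 3 cannot go below p = 0.1. All reads of the 42 genes were unique (100%). The replicate numbers do not pair the cultures. The genes, functional groups and lists were chosen with earlier results of these data known, and all members are named. Alternatives were DESeq2 1.42.0, limma 3.58.1 on log2(RPKM + 1), log2(RPKM + 0.1) and voom, other scalings, a filter, a block, adjustment over all loci and each library left out. The test was tried on simulated data with a smaller spread between libraries and no outlying library. That trial does not show how the test performs on these data. Gene names acuF and erg13 came from assembly ASM1142v1, where 42 of 42 genes were found. No base or amino acid sequence was used here.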

Additional observations from a re-analysis of the deposited data

How the results depend on the processing

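Under the 15 alternatives, no gene of the 42 changed direction. The count of changed genes moved by over 1.5 times when p-values were adjusted over all 10516 loci of the reference table, to 524 genes, of which 15 were among the 42, against 1287 and 37. Scaling libraries on the median listed gene raised the median log2 FC of the table by 0.69, and the split of calls went from 565 higher and 722 lower to 596 and 341, and among the 42 genes from 12 and 25 to 13 and 13. DESeq2 gave 613 and 346, and 14 and 13. Both take their scale from the listed genes by construction. TMM factors, also computed on the listed genes, shifted the median log2 FC by -0.0016. They left 11 higher and 25 lower calls among the 42. With 1 library left out, 992 to 1321 genes passed, and 28 to 41 of the 42, the highest in both cases without control replicate 3. The labels give the same replicate numbers to both strains, but no source pairs them and same-numbered deviations correlated at 0.18, -0.18 and 0.15. A replicate block in the fit gave calls for 1258 genes and 39 of the 42. Leaving out 1 library gave medians of log2 FC by function from -0.10 to 0.25 for glycolysis and gluconeogenesis and from -0.193 to 0.0563 for acetoacetyl and HMG-CoA, where genes of opposite sign meet and the direction of the median turned. The cause was not tested. The range was 1.51 to 3.33 for pyruvate, lactate and acetate, 2.33 to 5.11 for glycerol, -2.27 to -1.76 for acyl-CoA, -0.47 to -0.16 for the peroxisome, and -1.43 to -1.10 for aromatic acids and leucine synthesis. limma on log2(RPKM + 1) ended the calls of ANIA_01103, ANIA_05270, ANIA_10612 and ANIA_10764. Depth limited the 2 genes with a bound only, and ANIA_10612, but not these alone. ANIA_03564, ANIA_06649 and ANIA_07880 had 0 to 11 reads per celAΔ library, and ANIA_05843 had 2 to 7 reads per control.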

Other observations

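All 42 genes were found in the gene order of the reference assembly, over 8 chromosomes, and for 4 of them the previous gene of the set was at most 10 loci away. The longest such run was on chromosome I, where the acyl-CoA dehydrogenase ANIA_06761, the enoyl-CoA hydratase/isomerase ANIA_06767, 6 loci further, and the acyl-CoA gene ANIA_06775, another 8 loci further, lay in a row. The log2 FC of these genes were -2.24, -1.95 and -2.98. On chromosome III the acetate kinase ANIA_04914 lay 9 loci from the HMG-CoA synthase ANIA_04923, with log2 FC of 2.03, which did not pass, and -1.15. On chromosome IV the amine oxidase ANIA_07641 lay 10 loci from the phenylacetyl-CoA ligase ANIA_07631, with log2 FC of -2.70 and -1.42. These neighbours were picked out after their values were seen, and whether they are closer than other listed genes was not tested.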
